A study of Mus musculus with 17 samples.

Results

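The livers compared came from 4 mice that received only the high-fat diet (HFD) and 4 that received only the binge (1B), 8 of the 17 mice measured in the study. The HFD mice were fed a high-fat diet for 3 months and were given a gavage of maltose as the control for ethanol. The 1B mice were fed chow for the same 3 months and were given 1 gavage of ethanol at 5 g/kg. The 4 chow mice, fed chow and given maltose, served to show which side of a difference had moved. Together with 5 mice with both insults (HFD+1B), they also entered the estimate of the spread and the choice of probes. All mice were male, and the labels give the strain as C57BL/6N where the methods of the study name C57BL/6J. HFD and 1B mice differed in diet and in gavage at once, so a difference between them cannot be assigned to either without the chow mice. Each liver, 1 per mouse, was hybridized in Cy5 on an Agilent mouse oligonucleotide array against a Cy3 reference RNA common to all arrays, which the labels call assorted mouse RNA in 1 field and liver in another. All 41174 non-control probes were taken, and 34650 of them were tested, which stand for 19348 genes by 1 probe each, the brightest in Cy5.

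Fat reaches the liver as fatty acids from diet and adipose tissue or is made there from sugar by de novo lipogenesis, and it is stored in lipid droplets, exported in lipoproteins or oxidized in mitochondria and peroxisomes. Oxidation genes are switched on by the fatty acid receptor PPAR-alpha, lipogenic genes by the sugar- and insulin-responsive factors ChREBP and SREBP-1c, and cholesterol genes by SREBP-2. Ethanol is oxidized in the hepatocyte to acetaldehyde and acetate, and both a high-fat diet and a binge are known to cause fat accumulation in the liver.

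Values below are log2 ratios of liver to reference after normalization, so a level is comparable between mice but not between genes, and a difference is HFD minus 1B on the log2 scale unless stated. A signal near background pulls a ratio toward 0, so the differences of dim probes are understated. The arrays had a median Cy5 signal of 63 to 98 intensity units in HFD and 69 to 134 in 1B, and 74.16% to 80.42% and 75.4% to 81.11% of probes were well above background. Averaged per mouse, the 5 probes of ribosomal RNA lay at -3.81 to -2.15 in the HFD mice, below all 1B mice (-1.16 to 0.12) and all chow mice (0.22 to 0.59), and the part of this RNA signal in the other differences was not tested. All 12 hepatocyte markers tested were well above background on all 8 arrays, but so were 6 of 7 pancreatic acinar markers, so that this flag does not tell tissues apart. In acute phase genes 1 mouse of each group stood with the other group. The level of Saa1, a serum amyloid A of the acute phase, was 2.57, 1.19, -3.22, and 1.33 in 1B mice 1 to 4 and -2.58, -2.51, 1.85, and -2.06 in HFD mice 1 to 4. In most metabolic genes described below HFD mouse 3 and 1B mouse 3 stood with their own groups, and results that turn on HFD mouse 3 are given without it as well. HFD and 1B arrays shared 3 of the 5 slides, which hold mice 1, 2, and 4 of each group, and the within-slide values are differences between 1 mouse of each group. HFD mouse 3 and 1B mouse 3 lay on the 2 slides that were not shared.

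With limma's adjusted p (Benjamini-Hochberg over all probes tested) at 0.05 or below and a difference of at least 2-fold, 216 probes were higher in HFD than in 1B (0.623% of those tested) and 425 were higher in 1B (1.23%), so that 33.7% of the calls were higher in HFD, against 20.8% with median centring in place of loess. By genes these were 158 (0.817%) and 278 (1.44%), here called the separating genes. Without a fold threshold 1215 genes passed the adjusted p in favor of HFD (6.28%) and 1554 in favor of 1B (8.03%), and these shares are the background for the lists of genes below. The 4 HFD mice lay above all 1B mice in 1858 genes (9.6%) and below all of them in 1946 (10.1%). The median difference over all genes was -0.02. Of the 158 separating genes higher in HFD, 147 were higher on each of the 3 shared slides. Of the 278 higher in 1B, 274 were higher in HFD on none of these slides. A slide with a missing value counted against the former number but not against the latter, so the counts are not alike.

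The chow mice showed that most separating genes had moved in 1 of the groups only. Among the 278 higher in 1B, 176 were lower in HFD than in chow while 1B did not pass against chow, and 60 were higher in 1B while HFD did not pass. Another 29 passed in neither comparison with chow, and 9 had moved in both, down in HFD and up in 1B. Among the 158 higher in HFD, 74 were higher in HFD alone, 37 were lower in 1B alone, 29 passed in neither, and 16 were up in HFD and down in 1B. The remaining 6 separating genes passed in the same direction in both groups, to unequal extents. Both comparisons use the same 4 chow mice. Over all genes, 870 were higher (4.5%) and 1251 lower (6.47%) in HFD than in chow, against 404 (2.09%) and 396 (2.05%) in 1B.

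Cyp4a14, a microsomal fatty acid hydroxylase and PPAR-alpha target, had the largest difference in favor of HFD among genes with a value well above background on all 8 arrays. Its level was -0.38, 0.29, 1.11, and 1.13 in the HFD mice and -2.42, -3.99, -4.24, and -3.20 in the 1B mice. The groups did not overlap, and the difference was 4.00 (SE 0.54, adjusted p 1.66e-04). Depp1, a FOXO target linked to autophagy and fasting, was 1.24, 1.17, 1.13, and 2.10 in HFD and -2.73, -2.29, -2.67, and -2.20 in 1B, with the chow mice between them (0.06 to 0.74). The difference was 3.88 (SE 0.27, adjusted p 5.61e-07). Of the others among the 10 largest, by the same limit, 7 were Anxa2 (2.79) and S100a11 (2.45), which form a complex at membranes, the class Ib major histocompatibility gene H2-Q1 (2.67), the complement protease gene Cfd (2.60), Col1a1 (2.42), the interferon-stimulated Ifi27l2a (2.36), and the lipid droplet gene Cidec (2.30). In all 10 the 4 HFD mice lay above the 4 1B mice, which the choice of the largest called differences favors. Cfd, an adipocyte product also called adipsin, had 1 HFD mouse at -0.51 and 1 at 2.25, and it lost the call without any of 6 single mice, HFD mouse 3 among them (adjusted p up to 0.24 over the settings). Of the other adipocyte markers, Adipoq, Lep, Plin1, and Retn did not pass.

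**Figure D1:**
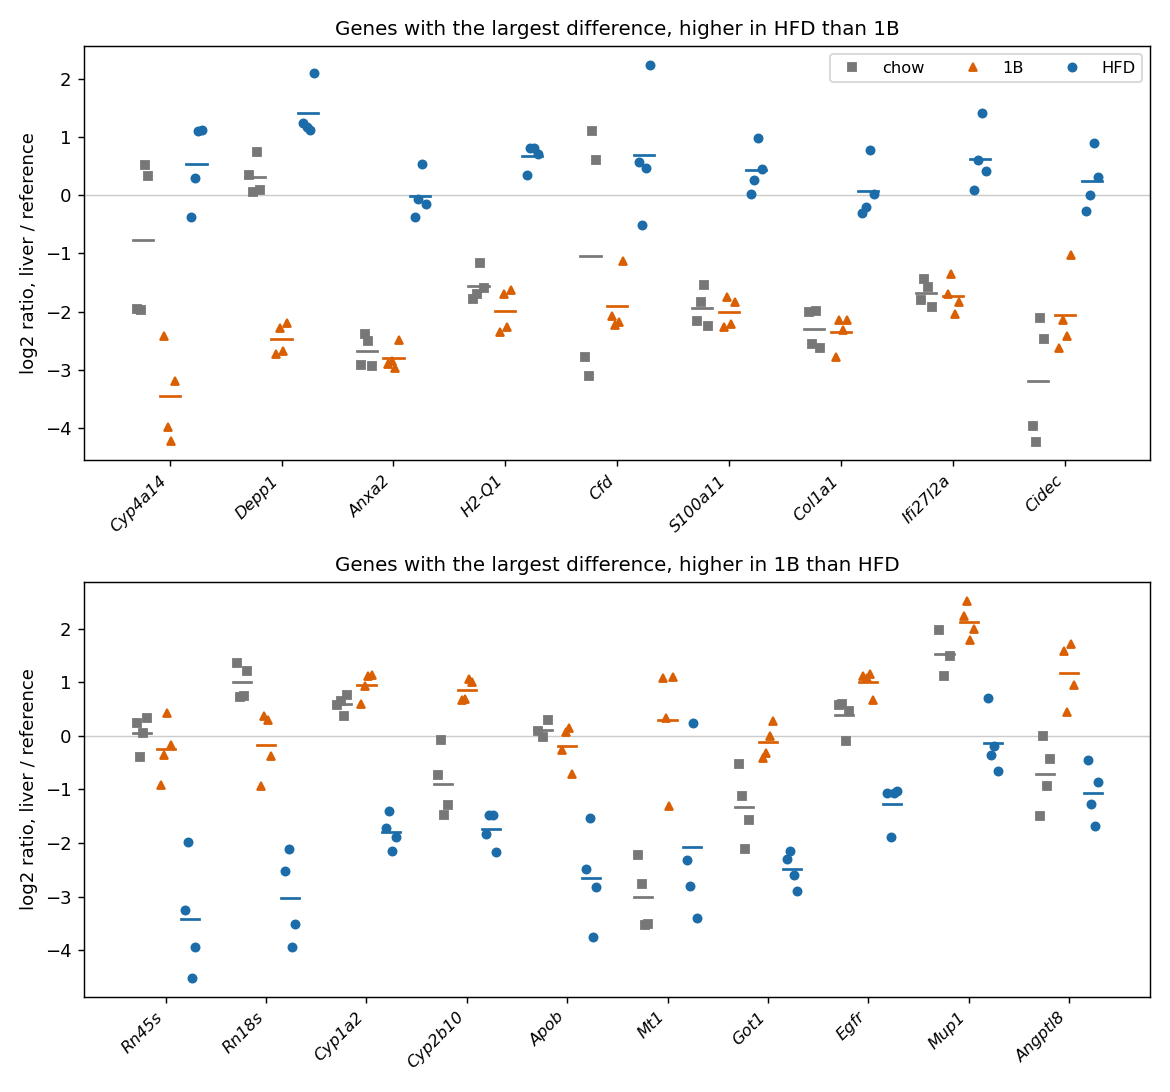
Log2 ratio of liver to reference (vertical axis) in each mouse for genes among the 10 with the largest difference in each direction that were above background on all 8 arrays; squares are chow, triangles 1B and circles HFD mice, and bars are group means. HFD and 1B mice do not overlap in any of these genes except Mt1, in which HFD mouse 3 (0.24) lies among the 1B mice. The genes were chosen for large differences, which favors a lack of overlap.

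Ribosomal RNA probes aside, the largest differences in favor of 1B by the same limit were in Cyp1a2 and Cyp2b10, cytochromes P450 of drug metabolism. Cyp1a2 was -1.73, -1.40, -2.15, and -1.90 in HFD and 0.60, 0.94, 1.12, and 1.14 in 1B, a difference of -2.74 (SE 0.22, adjusted p 1.78e-06). The 1B mice stood near the chow mice (0.38 to 0.77), so the separation was on the HFD side. Others among the largest, again by that limit, were Apob (-2.46), the structural protein of very-low-density lipoprotein, Got1 (-2.37), the cytosolic aspartate aminotransferase, Egfr (-2.27), the male-predominant urinary protein gene Mup1 (-2.26), and Angptl8 (-2.24), a feeding-induced inhibitor of lipoprotein lipase. All 6 probes of Egfr passed in the same direction (-2.27 to -1.57). Of the 5 probes of Apob, 3 passed, and they ranged from -2.68 to -0.36. Mup1 is 1 of a cluster of near-identical genes, and its probe may detect other members. The rRNA genes Rn45s (-3.17) and Rn18s (-2.86) exceeded all of these.

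Most genes of fatty acid oxidation and PPAR-alpha targets were higher in HFD. Of 31 genes on that list 30 were tested, 24 were higher in HFD and 0 higher in 1B, and 19 of the 24 differed at least 2-fold. The median difference was 1.22, and all 30 differences were positive. Taken per mouse, the median difference of the list from the chow mean was 0.22 to 0.62 in the HFD mice and -0.75 to -0.52 in the 1B mice. The chow mice themselves ranged from -0.33 to 0.39, so some HFD mice lay within their range and all 1B mice below it. Within slides the median difference was 1.16, 1.21, and 1.08. Against chow, genes of the list passed on both sides: 8 were higher in HFD and none lower, and 13 were lower in 1B and none higher, with medians of 0.38 and -0.63.

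The genes that passed covered transport, mitochondrial and peroxisomal steps. Cpt1a encodes the carnitine palmitoyltransferase that admits long-chain fatty acids to mitochondria. Its level was 0.98, 1.1, 1.47, and 1.26 in HFD and -0.85, -0.72, -0.69, and -0.64 in 1B, with chow at -0.16 to 0.41. The groups of Cpt1a did not overlap, with a difference of 1.93 (SE 0.16, adjusted p 1.58e-06). The carnitine carrier Slc25a20 (0.72) and the inner-membrane transferase Cpt2 (0.47) passed with smaller differences. Within the mitochondrion the long- and medium-chain dehydrogenases Acadl (1.02) and Acadm (0.55), the reductase Decr1 (1.11), and Hadhb (0.63) passed, whereas Acadvl (0.19), Hadha (0.40), and Acaa2 (0.29) did not. Pdk4, a brake on glucose oxidation, was higher by 1.26 (adjusted p 0.00188).

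Vnn1, a pantetheinase and sensitive PPAR-alpha target, was 0.40, 0.58, 0.81, and 0.63 in HFD and -2.30, -1.82, and -1.99 in the 3 1B mice with a value, a difference of 2.64 (SE 0.30, adjusted p 7.30e-05). Cyp4a10 (2.25) and Cyp4a31 (1.68) followed Cyp4a14, although Cyp4a10 had a value in only 2 HFD mice. These 3 genes lie in 1 cluster of close paralogs, and their probes may share signal. In Cyp4a10 and Cyp4a31 only the 1B side passed against chow, by -2.46 (adjusted p 4.43e-05) and -1.78 (adjusted p 1.12e-05), while HFD was at -0.21 and -0.11. In Cyp4a14 as well only the 1B side passed against chow, by -2.69 (adjusted p 0.00794), while HFD was at 1.31 (adjusted p 0.13). The thioesterases Acot1 (1.96), Acot3 (1.97), and Acot4 (1.26), the peroxisome gene Pex11a (1.67), and the thiolase Acaa1b (1.5) also passed. Ppara, the receptor itself, was 0.63 to 0.81 in HFD and -0.87 to -0.27 in 1B, a difference of 1.37 (SE 0.27, adjusted p 0.00308), of which the 1B side passed against chow (-1.06, adjusted p 0.0317) and the HFD side did not (0.30).

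The chow mice fell into pairs in several of these genes, a spread that enters the comparisons with chow but not the means compared in HFD minus 1B. Cyp4a14 was -1.96 and -1.98 in chow mice 1 and 2 and 0.52 and 0.32 in chow mice 3 and 4. Fabp1, the liver fatty acid binding protein, was 0.24, 0.16, 1.97, and 1.81 in the chow mice, 1.36 to 2.02 in HFD and 0.11 to 0.63 in 1B. Chow mice 3 and 4 thus stood with the HFD mice and chow mice 1 and 2 with the 1B mice or between. The 4 chow arrays lay on 4 slides, and a part of the slide in this split was not tested.

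**Figure D2:**
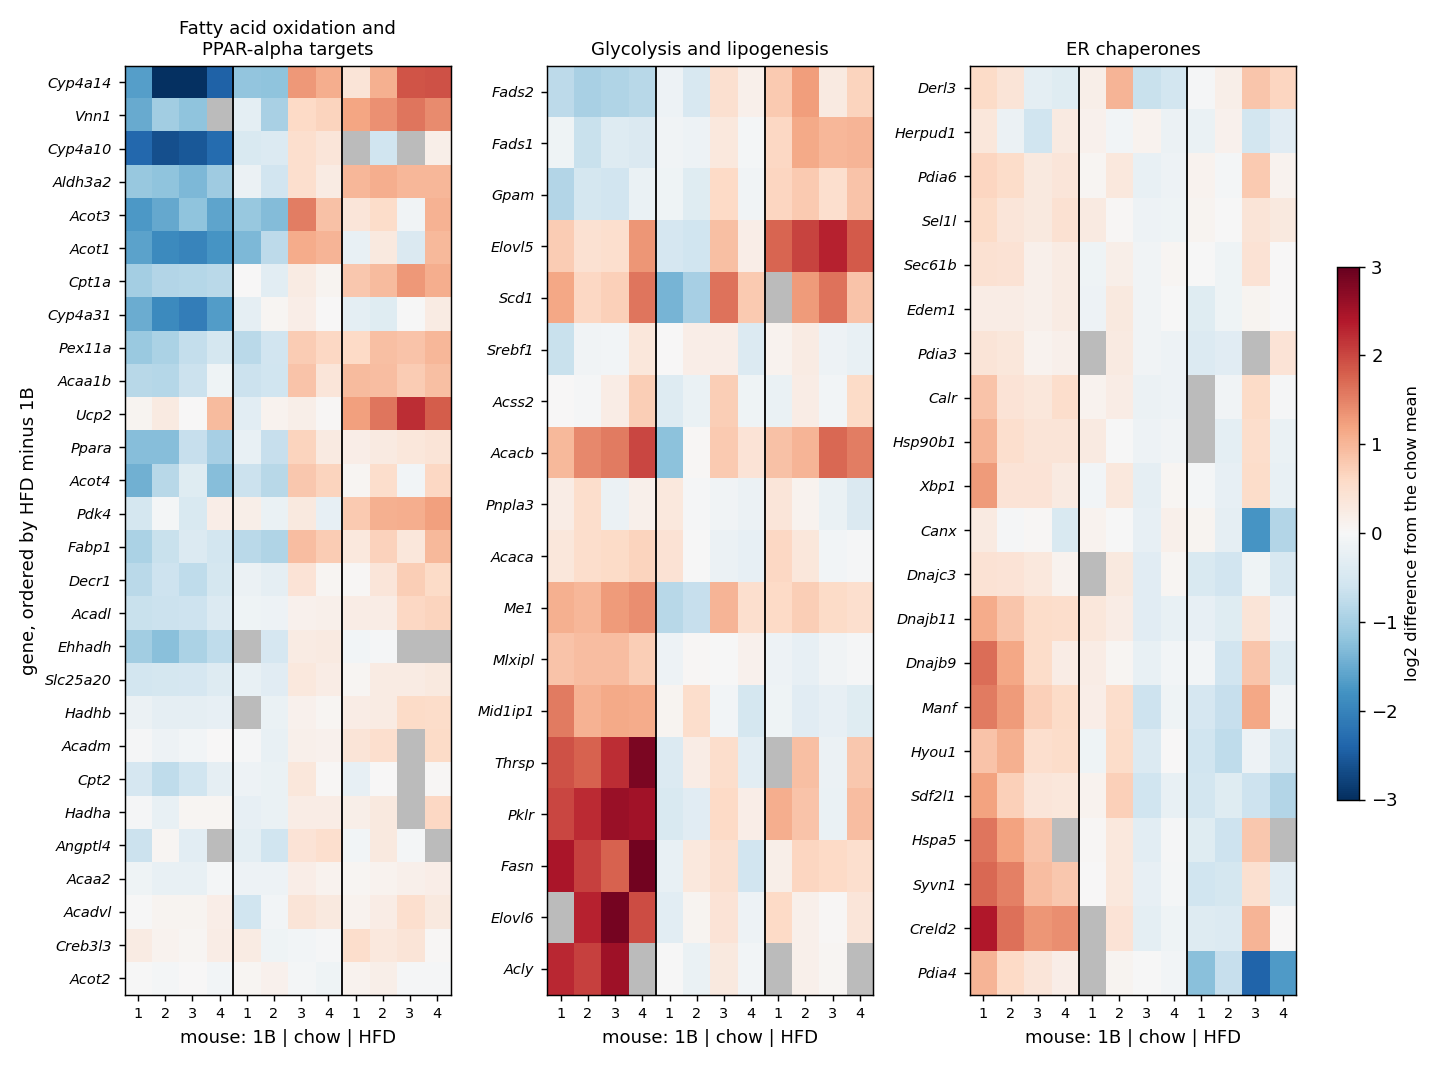
Log2 difference of each mouse from the mean of the chow mice (color, from -3 to 3, with values beyond shown at the end of the scale) for tested genes of 3 lists; columns are 1B, chow and HFD mice 1 to 4, rows are ordered by HFD minus 1B, and gray marks a missing value. Many oxidation genes, such as Cpt1a and Cyp4a14, are low in all 1B mice, Acly, Elovl6, Fasn, Pklr and Thrsp are high in all 1B mice with a value, and HFD mouse 3 is higher than the other HFD mice in several ER chaperones such as Hspa5 and Creld2.

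A promoter was at hand from RefSeq (build GRCm38.p6, 250 bases before to 50 after each gene's start) for 21 of the 30 oxidation genes. A strict form of the PPAR response element, AGGNCA repeated directly with 1 base between on either strand, was present in 1 of these 21, Fabp1, and in 0.381% of all 32851 promoters. The match starts 67 bases before the start of Fabp1 (chr6:71199782-71199854, plus strand) and reads as the motif on the opposite strand. It is shown because Fabp1 passed (difference 1.22, SE 0.33, adjusted p 0.0222), with the matched bases in capitals.
Fabp1: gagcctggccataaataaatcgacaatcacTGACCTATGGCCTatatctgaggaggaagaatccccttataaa

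Lipogenic genes divided between the groups. Of 19 genes of glycolysis and lipogenesis, 7 were higher in 1B and 5 higher in HFD. The 7 were Acly (-2.19), Elovl6 (-2.08), Fasn (-1.81), Pklr (-1.67), Thrsp (-1.66), Mid1ip1 (-1.48), and Mlxipl (-1.0), genes of different roles. Pklr encodes the pyruvate kinase of glycolysis in liver, Thrsp and Mid1ip1 encode regulators of lipogenesis, and Mlxipl encodes ChREBP. Fasn, fatty acid synthase, was 0.58, 0.18, -0.08, and 1.03 in 1B, above all HFD mice (-1.69, -1.22, -1.27, and -1.36) and all chow mice (-2.44 to -1.38). Elovl6, which elongates palmitate, was 1.17, 1.75, and 0.82 in the 3 1B mice with a value and -0.54, -0.97, -1.09, and -0.76 in HFD. Acly, ATP citrate lyase, which makes acetyl-CoA from citrate, had only 3 values in 1B (0.57, 0.36, and 0.85) and 2 in HFD (-1.55 and -1.65). All 7 were higher in 1B than in chow by 0.86 to 2.38, and none of the 7 passed between HFD and chow.

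Of the 5 lipogenic genes higher in HFD, 4 were Fads2 (1.61), Fads1 (1.35), Gpam (1.25), and Elovl5 (1.23), that is, both desaturases of polyunsaturated fatty acids, the first acyltransferase of glycerolipid synthesis, and an elongase of polyunsaturated fatty acids. The counts of 7 and 5 were the same in each fit that left out 1 mouse. Scd1, Srebf1, Acaca, and Acss2 did not pass (0.23, 0.12, -0.31, and -0.10).

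**Figure D3:**
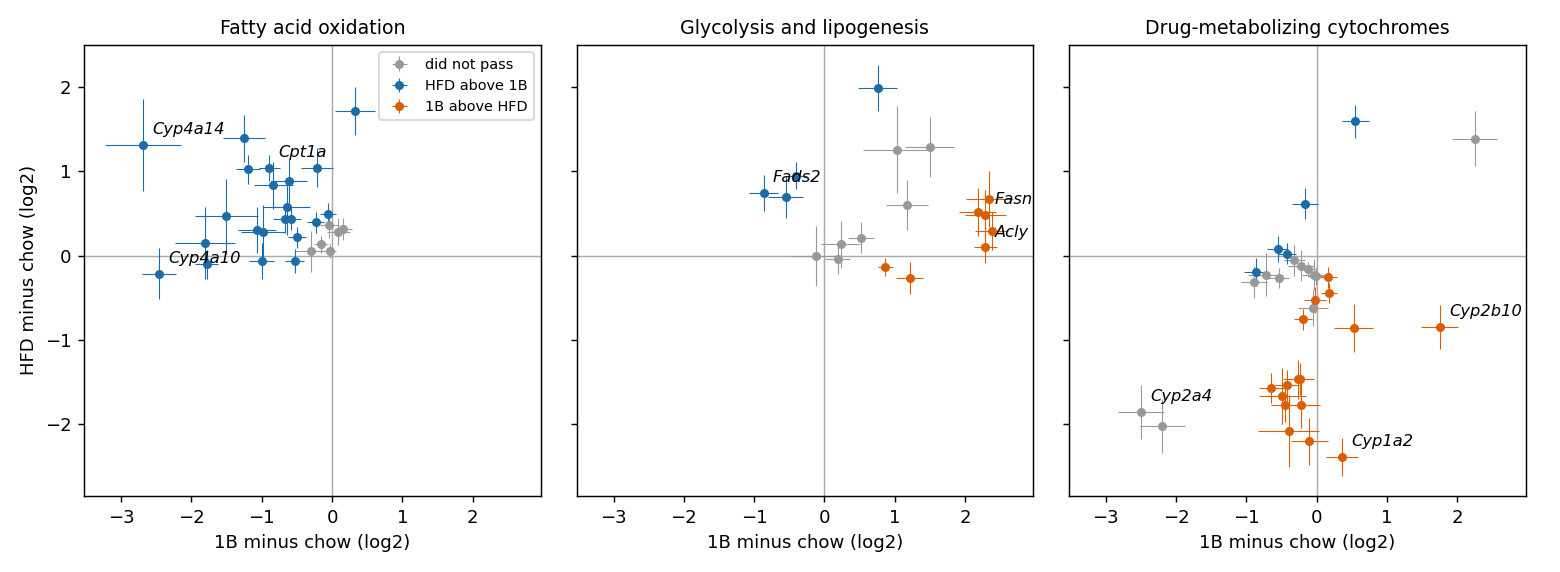
Each point is a gene, by its log2 difference of 1B from chow (horizontal axis) and of HFD from chow (vertical axis), with SE bars; blue and orange points passed between HFD and 1B and gray points did not. Oxidation genes lie to the left or above 0, the lipogenic group of Acly and Fasn to the right at near 0 in HFD, and most cytochromes below 0 in HFD at near 0 in 1B, and both axes share the chow mice.

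Some other genes of glucose metabolism and feeding were higher in 1B. G6pc, glucose-6-phosphatase, which releases free glucose, was 0.56, 0.53, 1.62, and 1.48 in 1B and -1.34, -2.78, and -1.74 in the 3 HFD mice with a value, a difference of -3.0 (SE 0.59, adjusted p 0.00358). G6pc was higher in 1B than in chow by 2.11 (adjusted p 0.0398). Angptl8 was higher in 1B than in chow by 1.89 (adjusted p 0.00216), while HFD did not pass against chow (-0.35). Fkbp5, a target of the glucocorticoid receptor, was 0.10 to 0.37 in 1B and -1.43 to -0.87 in HFD (difference -1.39, adjusted p 2.59e-05), and Lpin1, a phosphatidate phosphatase, was lower in HFD as well (-1.72, adjusted p 0.00348). Of the 17 genes tested on the glucose and glucocorticoid list, 4 were higher in 1B and 1 in HFD.

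Of 21 genes of the lipid droplet, 9 were higher in HFD and 1 in 1B, the median difference was 0.69, and within slides the medians were 0.59, 0.63, and 0.49. Cd36, the fatty acid translocase, was 0.18, 0.12, 0.26, and 0.07 in HFD and -1.92, -2.03, -2.17, and -1.91 in 1B, a difference of 2.16 (SE 0.28, adjusted p 1.16e-04). Cidea and Cidec, which promote droplet fusion, differed by 2.22 (adjusted p 2.91e-05) and 2.30 (adjusted p 0.00322), and the droplet coat gene Plin2 by 2.03 (adjusted p 5.18e-04). Against chow, 9 genes of the list were higher in HFD and 1 in 1B. That 1 gene was Plin5, the droplet coat of oxidative tissues, which was higher in 1B than in HFD (-0.73, adjusted p 0.0112). The synthesis genes Dgat1 and Dgat2 and the lipase Pnpla2 did not pass.

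Apolipoprotein genes divided, 6 being higher in HFD and 3 in 1B of 16 tested. Apoa4, a chylomicron apolipoprotein that the steatotic liver also makes, was 0.76, 1.83, and 0.41 in the 3 HFD mice with a value, -2.30 to -1.70 in 1B, and -4.67 to -4.0 in chow. It was higher than in chow in both groups, by 5.28 in HFD (adjusted p 1.22e-05) and 2.26 in 1B (adjusted p 0.00442), and the groups differed by 3.01 (SE 0.45, adjusted p 4.54e-04). Apoc2, the cofactor of lipoprotein lipase, was higher in HFD by 1.72 (adjusted p 2.78e-05). Apob and Mttp, which together assemble very-low-density lipoprotein, were both lower in HFD than in 1B, by -2.46 (adjusted p 0.00269) and -0.76 (adjusted p 0.0011), but Apob was low against chow in HFD (-2.77) and Mttp was high against chow in 1B (0.95).

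Cholesterol synthesis genes were higher in HFD in 10 cases and in 1B in 2, of 25 tested, with a median difference of 0.45. Against chow, 6 genes were lower and 1 higher in 1B, and 4 were higher and 2 lower in HFD. The list medians against chow were -0.19 in 1B and 0.32 in HFD. Msmo1, a sterol C4-methyl oxidase, was 0.20, 0.85, 0.93, and 1.53 in HFD and -1.33, -1.21, -1.28, and -1.1 in 1B (difference 2.11, SE 0.21, adjusted p 1.51e-05). Hmgcs1, the cytosolic synthase at the head of the pathway, was higher in HFD by 1.94 (adjusted p 7.97e-04). Srebf2 and Sqle did not pass (0.03 and 0.59). Insig1, an inhibitor of SREBP processing, went the other way (-1.34, adjusted p 0.0274) and was lower than in chow in both groups. It lost the call without any of 4 single mice and with slide as a block. On slide 1 the list median was -0.06, against 0.61 and 0.60 on the 2 other shared slides. The SREBP element TCACNCCAC was found in the promoter of 1 of 17 members, Hmgcs1, and in 1.24% of all promoters. It starts 137 bases before the start (chr13:119690184-119690252, plus strand), and is shown in capitals since Hmgcs1 had the second largest difference of the list.
Hmgcs1: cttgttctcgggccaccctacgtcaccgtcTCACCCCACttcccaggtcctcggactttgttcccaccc

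Of 33 drug-metabolizing cytochromes tested, 16 favored 1B and 5 favored HFD (at least 2-fold in 11 and 1), with a median difference of -0.50. More of these genes had moved in HFD, where 16 were lower and 3 higher than in chow, against 4 lower and 2 higher in 1B. The list medians against chow were -0.53 in HFD and -0.23 in 1B. Cyp2c29 was -1.08, -1.18, and -0.98 in the 3 HFD mice with a value and 0.84 to 1.31 in 1B (difference -2.10, SE 0.28, adjusted p 1.71e-04), and Cyp2c54, Cyp2c39, Cyp3a11, Cyp3a41a, and Cyp3a44 differed by -1.68 to -1.19. Members of these subfamilies are close paralogs, so their probes are not independent measures. Cyp2b10, the standard target of the receptor CAR, was -1.83, -1.48, -1.47, and -2.17 in HFD and 0.67, 0.68, 1.06, and 1.01 in 1B, a difference of -2.59 (SE 0.26, adjusted p 1.32e-05). The chow mice, at -1.48 to -0.08, overlapped the HFD mice and lay below all 1B mice. The genes of CAR and PXR, Nr1i3 and Nr1i2, differed in the other direction, by 0.66 (adjusted p 0.0171) and 0.64 (adjusted p 0.0117), while Cyp2b10 and Cyp3a11, their targets, were lower. Cyp2a4 and Cyp2a5 were lower than in chow in both groups, by -1.85 and -2.02 in HFD and -2.50 and -2.20 in 1B, and did not pass between them. Cyp2e1, the ethanol-inducible cytochrome, did not pass (0.50, adjusted p 0.20). Without HFD mouse 3 the counts were 5 and 12.

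Of 14 genes of ethanol oxidation tested 5 were higher in HFD and 1 in 1B, and 4 were lower in 1B than in chow. Adh4 was 0.50, 0.49, 0.31, and 0.79 in HFD, -0.69, -0.57, -0.34, and -0.59 in 1B, and 0.80 to 1.15 in chow, so it was lower than in chow in both groups, by -1.52 in 1B (adjusted p 1.99e-06) and -0.45 in HFD (adjusted p 0.024). Adh1, the main hepatic alcohol dehydrogenase, was higher in HFD by 0.68 (adjusted p 0.00233), Aldh1a1 by 1.21 (adjusted p 1.18e-05), and Aldh3a2, a fatty aldehyde dehydrogenase that is also a PPAR-alpha target, by 2.22 (adjusted p 1.17e-06). Adh7, an alcohol dehydrogenase typical of the stomach, was the 1 gene higher in 1B (-0.67, adjusted p 0.00163). With only probes above background on all 8 arrays, 13 genes of the list were tested and 0 were higher in 1B.

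Chaperones of the endoplasmic reticulum are known to rise when unfolded protein accumulates there. Of 21 genes 10 passed in favor of 1B and 0 in favor of HFD, 7 of them at least 2-fold, with a median difference of -0.66. Syvn1, an E3 ligase of the degradation pathway, was 1.25, 1.04, 0.44, and 0.33 in 1B and -1.07, -1.0, 0.01, and -0.80 in HFD (difference -1.48, SE 0.22, adjusted p 3.42e-04). Creld2 was 1.57, 0.83, 0.50, and 0.56 in 1B and -1.22, -1.24, 0.19, and -0.81 in HFD (difference -1.64, SE 0.30, adjusted p 0.00231). Hspa5, the master chaperone BiP, had 3 values in each group, 1.19, 0.79, and 0.43 in 1B and -0.78, -1.03, and 0.40 in HFD, and differed by -1.27 (adjusted p 0.0142). In all 3 genes HFD mouse 3 was the highest HFD mouse, and without it 13 of the 21 passed in favor of 1B and the median was -0.82. Against chow, 4 genes were higher in 1B and 1 lower in HFD. The 1 in HFD was Pdia4, a disulfide isomerase, which had the largest difference of the list (-2.06, adjusted p 2.58e-04). Xbp1, Calr, Herpud1, and Hsp90b1 did not pass. Within slides the medians were -1.32, -0.82, and -0.58.

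The classic endoplasmic reticulum stress element, CCAAT and CCACG with 9 bases between on either strand, was present in 9 of the 19 chaperone promoters at hand and in 0.119% of all 32851. It was in 4 of the 8 that passed and in 5 of the 11 that did not. The matched stretches of the 4 that passed are shown 5′ to 3′ on the strand of the gene, with the motif in capitals, and those of Creld2 read as the motif on the opposite strand. They lie at chr15:88819490-88819568 (Creld2, plus strand), chr14:118937797-118937875 (Dnajc3, plus strand), chr2:34771995-34772073 (Hspa5, plus strand), and chr19:6046502-6046575 (Syvn1, plus strand), and start 126, 105, 65, and 44 bases before the gene.
Creld2: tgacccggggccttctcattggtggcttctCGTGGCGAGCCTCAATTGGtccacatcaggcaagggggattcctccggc
Dnajc3: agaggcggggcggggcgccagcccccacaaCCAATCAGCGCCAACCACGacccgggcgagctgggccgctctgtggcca
Hspa5: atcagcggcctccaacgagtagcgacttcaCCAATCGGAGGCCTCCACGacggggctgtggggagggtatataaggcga
Syvn1: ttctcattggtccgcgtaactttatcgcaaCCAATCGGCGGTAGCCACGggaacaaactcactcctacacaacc

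Metallothioneins, zinc-binding proteins induced by metals, glucocorticoids and the acute phase, had large differences that did not hold in every mouse. Mt1 was 1.07, 0.32, -1.32, and 1.1 in 1B and -2.31, -2.80, 0.24, and -3.41 in HFD, so that the groups overlapped through 1B mouse 3 and HFD mouse 3. The difference of Mt1 was -2.37 (SE 0.61, adjusted p 0.0174). It lost the call without 1B mouse 1 (adjusted p 0.0558), without HFD mouse 4 (0.0664), and in a fit of the 8 arrays alone (0.076), and the dimmer of its 2 probes differed by 1.1 in the opposite direction and did not pass. Mt2 differed by -2.03 (adjusted p 0.0322) and lost the call in 9 settings. Slc30a10, a manganese exporter, was 0.38 to 0.79 in 1B and -0.95 to 0.29 in HFD without overlap (-1.05, adjusted p 0.00365). Of 9 genes on the list 4 were higher in 1B, against 1 to 4 when 1 mouse was left out and 1 in a fit of the 8 arrays alone. In the acute phase list 5 of 35 genes were higher in 1B and 0 in HFD, and 8 and 0 without HFD mouse 3. One of the 5, Stat3, the mediator of interleukin-6, was -0.50 to -0.10 in 1B and -1.37 to -0.84 in HFD (-0.90, adjusted p 0.00112), and its dimmer probe did not pass (0.02).

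Of 20 male-predominant and growth-hormone-dependent genes 8 were higher in 1B and 0 in HFD, with a median of -0.79. Hsd3b5, a male-specific steroid dehydrogenase, was -2.23, -3.14, -3.85, and -1.64 in HFD, 0.22, -0.26, 0.90, and -1.02 in 1B, and 1.31 to 2.09 in chow. It was lower than in chow in both groups, and more so in HFD (difference -2.68, SE 0.40, adjusted p 3.93e-04), where its probe was well above background on 3 of 4 arrays. Cyp7b1 (-2.06) and Slco1a1 (-2.23) were lower in HFD with 1B near chow. Against chow 9 genes of the list were lower in HFD and 3 in 1B. Egfr and Mup1, named above, were lower in HFD than in chow as well (-1.65 and -1.66). In 1B they stood above chow by 0.62 and 0.60, which did not pass.

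Of 16 genes of the urea cycle and amino acid nitrogen 2 were higher in HFD and 5 in 1B, the latter including the mitochondrial ornithine carrier Slc25a15 (-1.36, adjusted p 0.00491) and the argininosuccinate lyase Asl (-1.08, adjusted p 0.00509). Of 16 methionine cycle genes 3 were higher in 1B and 1 in HFD. Nnmt, which methylates nicotinamide, was 0.28, 0.26, -0.21, and 0.18 in 1B and -1.61, -1.99, -1.09, and -2.45 in HFD (-1.92, adjusted p 0.00628).

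Of 24 interferon-stimulated genes 11 were higher in HFD and 0 in 1B, with a median of 0.48. Ifi27l2a was 0.09, 0.60, 1.41, and 0.42 in HFD and -2.05 to -1.36 in 1B, which did not differ from chow (-0.05). Isg15 (1.21, adjusted p 4.46e-05) and Ifit3 (1.45, adjusted p 2.20e-05) had moved on both sides of chow, up in HFD and down in 1B. Ifit3 was 0.77, 1.15, 0.41, and 1.18 in HFD, -0.66 to -0.43 in 1B, and 0.09 to 0.16 in chow. The chemokine genes Cxcl9 and Cxcl10, induced by interferon-gamma, differed by 1.17 (adjusted p 0.00793) and 0.90 (adjusted p 0.00383), both in favor of HFD. Cxcl10 was not well above background on any 1B array, so its level there is only a bound, and it was at least 1.80-fold higher in HFD. Leaving out 1 mouse at a time, the count of 11 became 7 to 10.

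Some markers of macrophages and matrix were higher in HFD. Fewer cells of a type and less RNA per cell cannot be told apart in whole liver. Of 13 Kupffer cell and macrophage markers 5 were higher in HFD and 0 in 1B, with a list median, taken per mouse against the chow mean, of 0.50 to 0.76 in the HFD mice and -0.08 to 0.03 in the 1B mice. Cd68, a lysosomal glycoprotein of macrophages, was 0.02 to 0.44 in HFD and -1.54 to -1.04 in 1B (1.44, adjusted p 2.84e-04), and Adgre1, the F4/80 antigen, differed by 0.96 (adjusted p 0.00295). Without HFD mouse 3 the count was 3, and with Cy5 alone 2. Of 34 collagen and matrix genes 13 were higher in HFD and 1 in 1B. These became 7 and 1 without HFD mouse 3 and 2 and 0 with Cy5 alone. Col1a1 was -0.31, -0.20, 0.79, and 0.02 in HFD and -2.79 to -2.14 in 1B, and Col3a1 was higher by 1.07 (adjusted p 0.00491). Acta2, smooth muscle actin of activated stellate cells and vessels, was the exception (-0.92, adjusted p 0.00122), being higher in 1B. Of the class II major histocompatibility genes 2 of 7 passed, Cd74 and H2-DMb1, and Cd74 lost the call without any of 6 single mice. Ly6g, the neutrophil marker that the study measured by PCR, had no annotated probe on the array. Of the 14 neutrophil markers tested 0 passed limma's adjusted p in either direction, and 0 had an unadjusted p of 0.05 or below. None of 4 B cell, 5 erythroid, and 7 pancreatic acinar markers passed either, with 0, 1, and 1 at the unadjusted p. Of 5 cholangiocyte markers 3 were higher in 1B (median -0.44), against 1 to 3 when 1 mouse was left out and 1 with Cy5 alone. Of 10 sinusoidal endothelial markers 3 were higher in HFD and 1 in 1B. Of 9 stellate cell markers 1 was higher in HFD, and of 5 T cell markers 1 was higher in 1B. In the hepatocyte list Ahsg, Apob, and Serpina1b were lower in HFD and Ttr higher, and the other 8 of 12 did not pass.

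**Figure D4:**
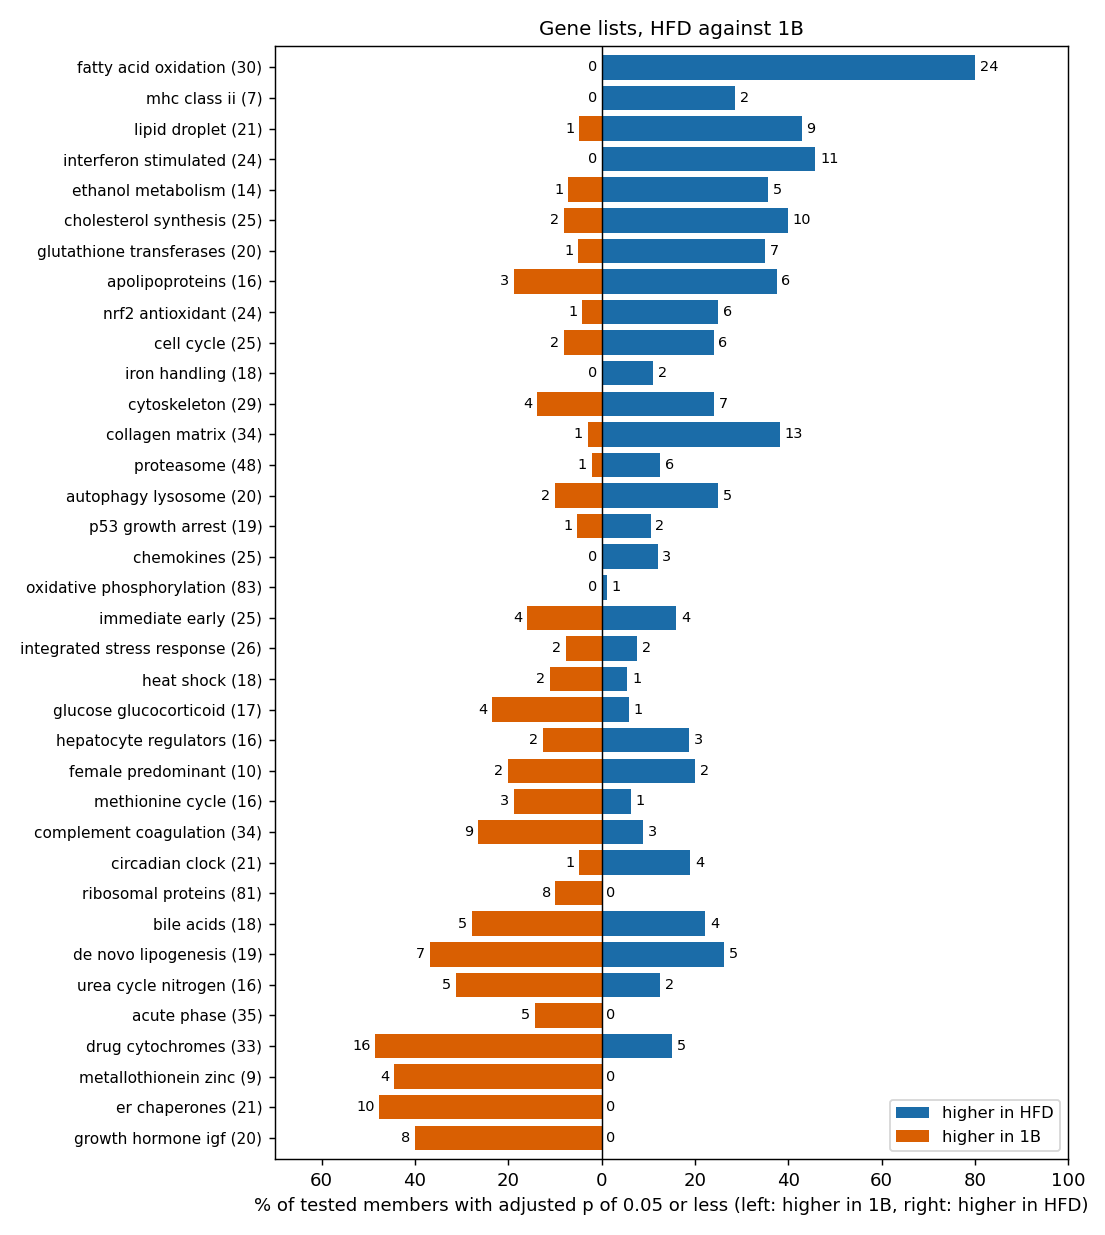
Share of the tested members of each function list shown that passed limma's adjusted p of 0.05 between HFD and 1B (horizontal axis, percent), to the right where higher in HFD and to the left where higher in 1B; numbers at bars are genes, and those in parentheses are genes tested. Fatty acid oxidation has the longest bar of these lists (24 of 30), and all genes tested have 6.28% and 8.03%.

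Genes that moved in opposite directions from chow were few. With an adjusted p at or below 0.05 in both comparisons, 24 probes were up in HFD and down in 1B (0.0693% of those tested) and 14 were down in HFD and up in 1B (0.0404%), which stand for 19 and 9 genes by the brightest probe. With at least 2-fold in each comparison 3 and 2 probes were left. Without chow mouse 4 they were 9 and 5, and over all fits that left out 1 mouse they ranged from 9 to 29 and from 3 to 14.

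Of the 19 genes up in HFD and down in 1B, Vnn1, Aldh3a2, and Cpt1a belong to the oxidation list. Aldh3a2 was 1.08, 1.17, 1.08, and 1.09 in HFD, -1.06, -1.13, -1.27, and -1.0 in 1B, and -0.50 to 0.59 in chow. Each HFD mouse stood above and each 1B mouse below every chow mouse, as in Vnn1, Depp1, Cpt1a, Ifit3, and Gk. Gk, glycerol kinase, was 0.54, 0.75, 0.35, and 0.71 in HFD, -0.89, -0.93, -0.62, and -1.03 in 1B, and -0.43 to 0.01 in chow, with differences from chow of 0.77 (adjusted p 6.84e-04) and -0.68 (adjusted p 0.00217). Fads2 (0.74 and -0.87 from chow) and Fdft1 (0.60 and -0.68), the squalene synthase, completed the 8 genes shown, ranked by the smaller of their 2 differences from chow. Of the 2 probes of Fdft1, the dimmer one differed by -0.09 between HFD and 1B and did not pass.

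The 9 genes down in HFD and up in 1B included Got1, Gnmt, and Cyp2b10. Got1 was -2.29, -2.15, -2.60, and -2.89 in HFD, -0.41, -0.32, -0.01, and 0.28 in 1B, and -2.11 to -0.53 in chow. Its differences from chow were -1.15 (adjusted p 0.0187) and 1.22 (adjusted p 0.0233), and the 3 groups of Got1 did not overlap, chow mouse 1 being nearest to 1B. Gnmt, glycine N-methyltransferase, which consumes S-adenosylmethionine, was -0.37, -0.54, and -0.20 in the 3 HFD mice with a value, 0.74 to 1.06 in 1B, and 0.09 to 0.38 in chow, with no overlap among the 3 groups. Fam47e, Slc35g1, Lrrc58, Mgat2, which builds complex N-glycans, and the ubiquitin ligase gene Nedd4 differed from chow by -0.84 to -0.53 in HFD and 0.57 to 0.76 in 1B.

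**Figure D5:**
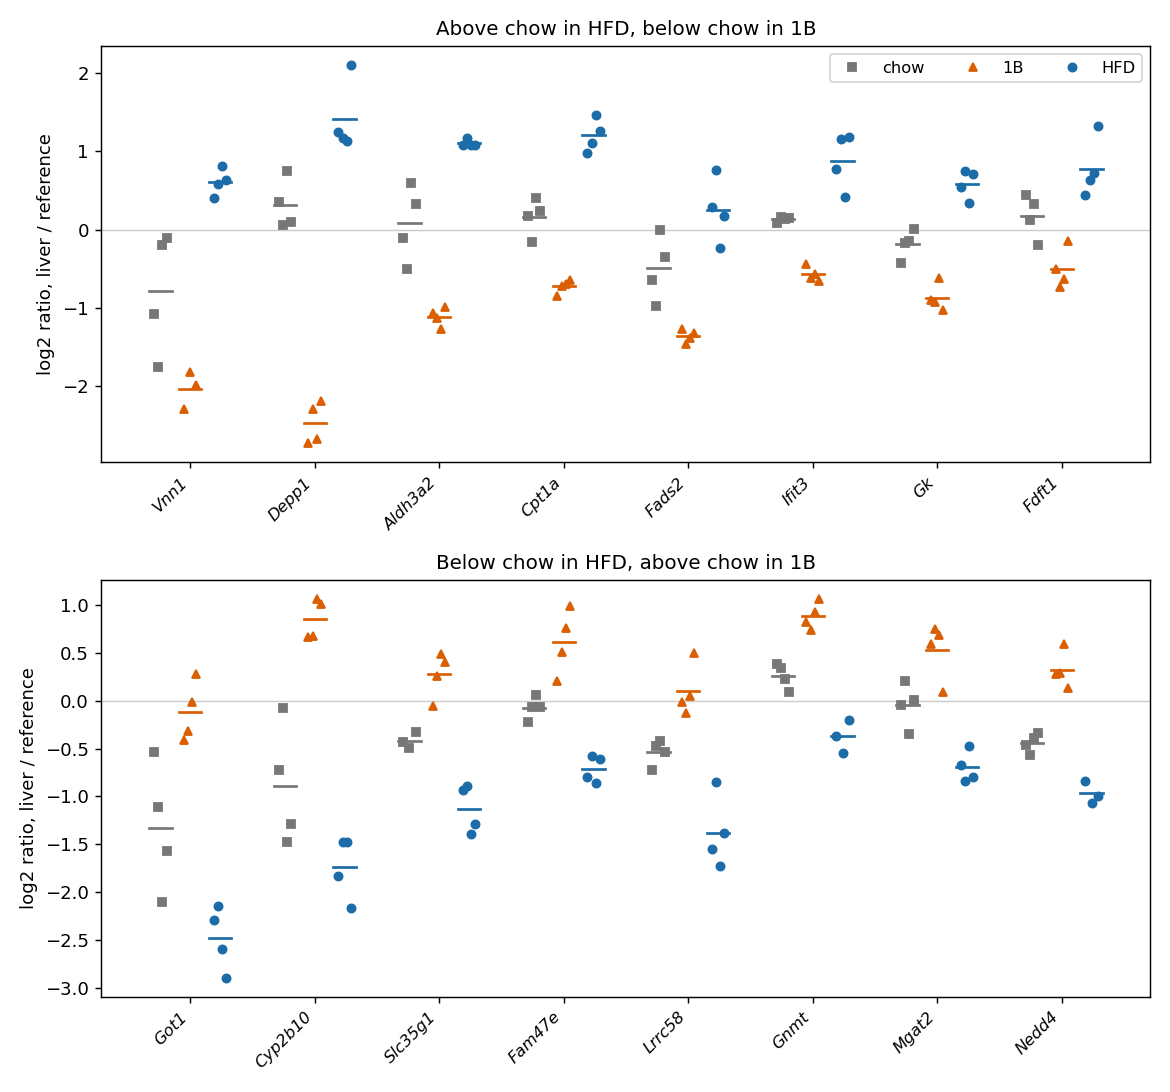
Log2 ratio of liver to reference (vertical axis) in each mouse for the 8 genes with the largest opposite differences from chow in each direction; squares are chow, triangles 1B and circles HFD mice, and bars are group means. The choice of genes places the chow means between those of HFD and 1B. Single chow mice overlap the HFD mice in Fads2, Fdft1, and Cyp2b10 and the 1B mice in Fdft1 and Mgat2.

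Glutathione transferases leaned to HFD, with 7 of 20 higher in HFD and 1 in 1B. Antioxidant genes did so as well, with 6 and 1 of 24. With Cy5 alone these counts were 1 and 1, and 3 and 1. Of 81 ribosomal protein genes 8 were higher in 1B (9.88%, against 8.03% of all genes) and 0 in HFD. Their median was -0.16, 68 of the 81 differences were negative, and with Cy5 alone 0 passed. Several other lists had few or mixed differences. Of 83 genes of oxidative phosphorylation 1 passed limma's adjusted p in favor of HFD and 0 in favor of 1B, against 15 and 2 at an unadjusted p of 0.05, with a median of 0.08. Of 26 genes of the integrated stress response 2 passed in each direction, and of 18 heat shock genes 1 and 2. Among the former, Fgf21, a hepatic hormone induced by PPAR-alpha and by amino acid stress, was 0.21 to 0.84 in HFD and -1.45 to -0.30 in 1B (1.1, adjusted p 0.0391), and lost the call in 9 settings. Of 21 circadian clock genes 4 were higher in HFD and 1 in 1B, although the list median was -0.13. The 4 became 1 to 4 when 1 mouse was left out (2 without HFD mouse 3), 1 with median centring, and 0 with Cy5 alone. Dbp, an output gene of the clock, was 0.77, 0.78, -0.28, and 0.36 in HFD and -1.37 to -0.71 in 1B (1.42, adjusted p 0.0122), and it was lower in 1B than in chow by -1.73 (adjusted p 0.00717). The core genes Clock, Per1, Per2, Cry1, and Cry2 did not pass, while Arntl was higher in HFD by 0.49. Of 25 immediate early genes 4 passed in each direction, with Klf10 (-1.87, adjusted p 0.00139) among those higher in 1B. When 1 mouse was left out the counts were 2 to 4 in favor of HFD and 1 to 3 in favor of 1B, and with Cy5 alone 0 and 1.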

How the data were processed

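Liver RNA of each mouse was labelled with Cy5 and hybridized with a Cy3 reference RNA on Agilent mouse arrays, without dye swaps. The intensity values deposited by the authors are the signals and backgrounds of each spot from Agilent Feature Extraction 11.5.1.1, per the file headers. The authors' table of log2 values holds the log2 ratio of the deposited processed signals, Cy5 over Cy3, from which it differed by at most 2.7e-06 over 40929 probes in a single spot, and it served as an alternative. All value columns were matched to samples (0 without one).

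In R 4.3.3 with limma 3.58.1, signals were corrected by normexp (offset 50) and loess within arrays, and the 43379 non-control spots were averaged to 41174 probes. The probes tested had a value in each group and Cy5 flagged above background by the scanner software on 4 or more of the 17 arrays. Outlier spots were left out, which made 3424 values missing and 25 probes untestable. The model had 4 group means and 13 residual degrees of freedom, with Benjamini-Hochberg adjustment over the 34650 probes. A gene stands by its brightest probe. Of all probes, 35356 had a symbol, 28378 of them through a RefSeq accession. The number of arrays limits the precision. No 2 arrays were duplicates (highest correlation 0.8738). The labels do not say that cages or days were separate, so p-values set a difference only against the spread between these mice, pooled within groups.

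The genes shown are the 10 largest called differences each way with all 8 arrays above background and valued, up to 8 each way that moved oppositely from chow, up to 3 per list by size among those that passed, the ribosomal RNA probes, and members of lists described singly. The contrast and the 50 lists, 1018 of whose 1054 symbols were tested, were chosen with earlier results of these data known. The fit was tested on simulated data. Alternatives covered background, normalization, filters, thresholds, slide and replicate blocks, and leaving out each mouse. HFD+1B was compared with no group here. Promoter sequences came from RefSeq (GRCm38.p6). Some genes are not reported here, singly or in figures, but count in the list totals.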

Additional observations from a re-analysis of the deposited data

Results flagged for a closer look

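In groups of 4 mice, a mouse was singled out when its gap to the nearest other mouse exceeded the 95% critical value of Dixon's ratio of gap to range. This held in 15 of the 358 groups examined, and chance gives about 1 in 20, or 17.9. The values are log2 ratios for genes and log2 differences from the chow mean for lists.

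The median of the urea cycle and nitrogen list was lowest in 1B mouse 1 at -0.21, with the others at -0.09 to -0.07 (gap over range 0.876). Fgf21 was lowest in 1B mouse 2 at -1.45, with the others at -0.43 to -0.30 (gap over range 0.893). Serpina3k was highest in 1B mouse 3 at 2.35, with the others at 1.85 to 1.88 (gap over range 0.93). Bbc3 was lowest in 1B mouse 4 at -0.04, with the others at 0.31 to 0.37 (gap over range 0.855). Cfd was highest in 1B mouse 4 at -1.12, with the others at -2.23 to -2.08 (gap over range 0.863). Cxcl9 was highest in 1B mouse 4 at -0.20, with the others at -0.57 to -0.55 (gap over range 0.95). Egfr was lowest in 1B mouse 4 at 0.67, with the others at 1.08 to 1.15 (gap over range 0.852). Hexa was highest in 1B mouse 4 at -0.68, with the others at -0.86 to -0.84 (gap over range 0.925). The median of the erythroid markers was highest in 1B mouse 4 at 0.06, with the others at -0.08 to -0.05 (gap over range 0.834).

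Vcam1 was lowest in HFD mouse 1 at -0.11, with the others at 0.27 to 0.33 (gap over range 0.867). Aldh3a2 was highest in HFD mouse 2 at 1.17, with the others at 1.08 to 1.09 (gap over range 0.922). Egfr was lowest in HFD mouse 2 at -1.90, with the others at -1.07 to -1.03 (gap over range 0.948). Nr1i2 was lowest in HFD mouse 3 at -0.41, with the others at 0.15 to 0.24 (gap over range 0.859). The median of the lipogenesis list was lowest in HFD mouse 3 at 0.05, with the others at 0.59 to 0.65 (gap over range 0.904). Depp1 was highest in HFD mouse 4 at 2.10, with the others at 1.13 to 1.24 (gap over range 0.887).

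Egfr was singled out in both groups, and its values in HFD and 1B did not overlap.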

How the results depend on the processing

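The counts of probes higher in HFD and higher in 1B, 216 and 425, were between 183 and 259 and between 363 and 481 when 1 mouse at a time was left out. They were 129 and 348 with Cy5 alone, and 835 and 1121 in the authors' table of log2 ratios, which carries no offset. An adjusted p with 1.5-fold gave 843 and 1342, and without a fold 1857 and 2448. The test named in the study's methods gave 227 and 416 probes unadjusted and 161 and 219 after Benjamini-Hochberg adjustment. Median centring in place of loess gave 146 and 557, and moved the median difference of all genes from -0.02 to -0.09.

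The opposite calls, 24 up in HFD and down in 1B and 14 the reverse, were 8 and 8 with median centring, 2 and 1 with Cy5 alone, 18 and 8 in the authors' table, 27 and 9 without a filter on signal, and 3 and 2 with 2-fold in each comparison. They ranged from 9 to 29 and from 3 to 14 when 1 mouse was left out. With slide as a block they were 38 and 13. With the replicate number as a block they were 53 and 19, and the direct counts 224 and 429. Same-numbered HFD and 1B mice deviated together by correlations of 0.242, 0.257, -0.115, and 0.402, where numbers 1, 2, and 4 share a slide and number 3 does not, so the numbers were not taken as pairs.

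Of the 137 genes followed singly through the alternatives, 79 kept direction and call under every one and 58 lost the call under at least 1. With Cy5 alone 53 of the 137 lost it. Some list members given above with their values, such as Fasn, Ppara, and Plin2, were not among the 137. The difference of 1 gene, Psmd14, a proteasome subunit, reversed from 0.63 to -0.65 with Cy5 alone, and the cause was not tested. In the main fit the dimmer of its 2 probes passed in the opposite direction (-0.94). Low signal over background limits dim probes, whose differences are understated.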
